A study of Oryzias latipes with 4 samples.

Results

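Neuropeptides are small signalling peptides cut from larger precursor proteins inside the secretory granules of neurons and endocrine cells, and released to act on G protein-coupled or guanylyl cyclase receptors. In the hypothalamus they carry signals for feeding, arousal, stress and reproduction, and several of them reach the pituitary, where they raise or lower the release of its hormones. Described here are 34 gene identifiers of such precursors or hormone precursors and 1 of an enzyme, with 2 genes under the identifier npb. They were found by a search of the protein names in the BLAST hits of the deposited table. A name was kept if it held 1 of 19 search words (neuropeptide Y, galanin, somatostatin, orexin, natriuretic and the like) and not the word receptor. The search found 57 features, which were summed to 35 gene identifiers out of 20898 in the table. Of the search words, 15 found a gene. The words dynorphin, melanin-concentrating hormone, neurotensin and vasoactive intestinal found none. Dynorphin is encoded by the gene described as proenkephalin-B, which was found by another word, and genes described as pro-MCH and VIP peptides are given below with the other precursors. The enzyme is corin, which cuts the precursor of atrial natriuretic peptide and was found through the word natriuretic. It is no peptide precursor, but the sums, counts and medians given for the precursors include it unless stated. Its own values are given with the natriuretic peptide genes.

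The RNA came from female medaka (Oryzias latipes), a small fish that breeds under long days, bought from a dealer. Their strain and age are not given in the labels. All fish were first kept under short days (SD). The SD group stayed there, the LD group was moved to long days, and the ventral telencephalon, hypothalamus and pituitary were taken as 1 block 16 h from the transition. Each group had 6 fish and 2 libraries (SD 1, SD 2, LD 1 and LD 2), and nothing says how the fish were divided between the libraries, so p-values measure only the spread between libraries, which may be technical.

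Values are FPKM, fragments scaled to the length of the feature and to the size of the library. The 4 libraries had FPKM sums of 458696 to 463066 and between 37506 and 39789 features above 0. SD 2 had the most features above 0, and the sequencing depth of the libraries is unknown. Markers of the hypothalamus (isotocin, LOC101160739, at 103.5 to 308 FPKM, and orthopedia B, LOC101157220, at 37.9 to 43.8) and of the pituitary (prolactin-1 at 1825 to 3900) were present in every library. Of 40 genes listed as midbrain and hindbrain markers 24 were at 0 throughout, all of them Hox genes. The most abundant were gbx1 (3.14 to 4.34) and gbx2 (2.53 to 3.22). Hox genes were listed by name, posterior ones of the trunk included, so the count at 0 says little about midbrain and hindbrain tissue. Libraries stood apart in some marker sums. The 9 pituitary hormone genes summed to 2674 FPKM in LD 1, against 5443, 6016 and 4408 in SD 1, SD 2 and LD 2. Of these genes 8 had a log2 difference below 0, and for 5 both LD values were below both SD values. The 15 glial markers, led by glul and s100b, summed to 2718 in LD 1, against 2283, 2220 and 1786. They did not move as one. Myelin basic protein (LOC101159204) was at 448 in LD 1, against 272, 245 and 175, but glul was at 736, against 817, 749 and 612. In SD 1 the 10 blood markers, nearly all hemoglobin gb and LOC101174997, summed to 6085, against 8369, 9132 and 7412 in SD 2, LD 1 and LD 2. The 7 hypothalamus markers summed to 200.1 in SD 1, against 312, 285 and 404. That sum followed isotocin alone, at 103.5 in SD 1, against 211.8, 182.4 and 308.1. For each other gene of the list the highest library was at most 1.285 times the lowest. The part of these differences in the results was not tested. The range of each tested gene with 1 library left out is given in the closing section. In a block of mixed tissue, fewer cells of a type and less RNA per cell cannot be told apart.

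The precursors covered a wide range of levels. Of the 35 genes, 4 had a mean of at least 100 FPKM, 13 lay between 10 and 100, 9 between 1 and 10, and 9 below 1. Their summed level was 1258 and 1292 FPKM under SD and 1329 and 1219 under LD, and the 5 most abundant (cck, cnp-1, npy, somatostatin-1 and npb) made up 61.1% to 61.6% of it in each library. Those 26 at or above 1 FPKM were tested for a difference between LD and SD in a fit over all 17030 genes and features of that level, with limma on log2(FPKM + 1).

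No neuropeptide precursor gene passed the threshold of 0.05 for the limma adjusted p. The lowest adjusted p of the 26 was 0.783, and 1 gene, penk, had an unadjusted p under 0.05. Over all 17030 genes and features, 0.00587% passed the adjusted threshold (1, somatotropin) and 6.34% had an unadjusted p under 0.05. Of the 26 tested genes 14 had a log2 difference above 0 and 12 below 0, and the median was 0.015, against -0.013 over all genes and features, of which 46.3% were above 0. The lowest LD value exceeded the highest SD value for 3 of the 26 (cck, tac1 and the CART gene of chromosome 11). That CART gene passed the filter only through LD 1, and its LD 2 value of 0.21 FPKM was near SD 2, at 0.146. The reverse held for 6 (penk, tac3, 1 of the agouti-related genes, CART ch6, npy and cnp-3). Together these make 34.6% with groups that do not overlap. Over all genes and features the groups did not overlap for 37.2%, with 16.4% above and 20.9% below. The share among the precursors is near that background. With 2 libraries against 2, an exact permutation test of a single gene cannot go below a two-sided p of 0.33.

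For 25 of the 26 genes the 95% interval of the log2 difference lay within -1 to 1, so a change of more than 2-fold on the log2(FPKM + 1) scale lay outside it, and the exception was the CART gene of chromosome 11. The median interval reached 0.32 to each side of the estimate on the log2 scale, a fold of 1.25. The highest library was less than 1.5 times the lowest for 19 genes and less than 2 times for 25, which are all those with no library at 0.

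**Figure D1:**
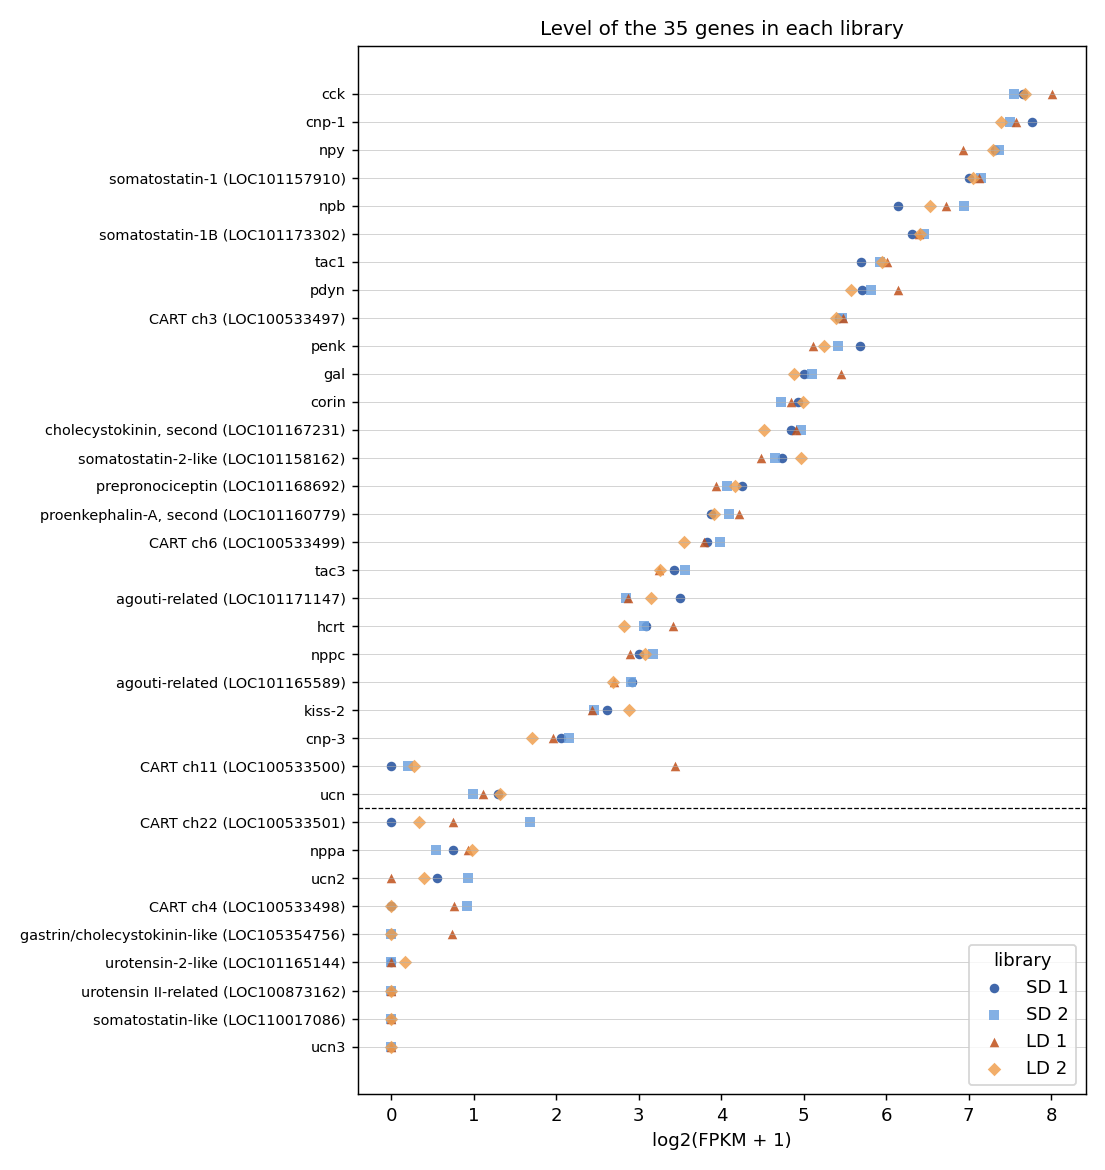
Level of the 35 genes in each library, as log2(FPKM + 1), ordered by the mean of the 4 libraries; blue circles and squares are SD 1 and SD 2, orange triangles and diamonds LD 1 and LD 2. Genes above the dashed line have a mean of at least 1 FPKM and were tested; CART ch11 stands apart in LD 1.

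Several of the abundant genes encode peptides that act on feeding. Cholecystokinin, a satiety peptide of gut and brain, had the highest level of all 35. Its gene cck, on chromosome 11 at 14265306 to 14268143 in the coordinates of the deposited table, stood at 201 and 187 FPKM under SD and at 258 and 204 under LD. The LD libraries were above the SD libraries by a small margin for LD 2 and a larger one for LD 1. The log2 difference was 0.24 (standard error 0.12, 95% interval -0.08 to 0.56, limma adjusted p = 0.794), and 0.073 without LD 1. Another gene described as cholecystokinin, LOC101167231 on chromosome 16, was less abundant, at 27.7 and 30.3 FPKM under SD and 28.9 and 22.0 under LD. Its log2 difference was -0.19, and it was -0.38 without LD 1 and -0.0050 without LD 2. In these libraries cck stood 6.17 to 9.29 times above it. A gastrin/cholecystokinin-like gene (LOC105354756) was listed at 0 in 3 libraries and at 0.661 FPKM in LD 1.

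Neuropeptide Y, which drives feeding, was encoded by the third most abundant gene. The gene npy stood at 159 and 164 FPKM in SD 1 and SD 2, and at 121 and 155 in LD 1 and LD 2. Both LD values were below both SD values, but LD 2 was close to the SD libraries and LD 1 was the low one. Its log2 difference was -0.23 (95% interval -0.56 to 0.09, limma adjusted p = 0.800), and it was -0.055 without LD 1. Agouti-related protein, which promotes feeding by blocking melanocortin receptors, had 2 genes of similar level. LOC101171147 on chromosome 3 stood at 10.4 FPKM in SD 1, above the other 3 libraries, which were at 6.18 in SD 2, 6.30 in LD 1 and 7.86 in LD 2. LOC101165589 on chromosome 17 stood at 6.53 and 6.51 FPKM under SD and 5.49 and 5.46 under LD. Summed over its features, replicates of LOC101165589 nearly coincided and the groups were apart, with a log2 difference of -0.22 (95% interval -0.47 to 0.04, limma adjusted p = 0.786). The LD replicates were less close in each feature. The higher feature stood at 5.94 and 6.02 FPKM under SD and 5.24 and 4.76 under LD. The lower stood at 0.594 and 0.482 under SD and 0.251 and 0.695 under LD, and its groups overlapped. The higher feature matched the BLAST hit over 168 of 807 bases and spans a feature of LOC101165344, at 17.2 to 27.5 FPKM. The part of shared reads was not tested.

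CART (cocaine- and amphetamine-regulated transcript) lowers food intake in fish and mammals, and medaka has several genes for it, named in the table by chromosome. The most abundant, CART ch3 (LOC100533497), was the steadiest of the 26 genes, at 41.9 and 42.9 FPKM under SD and 43.5 and 40.8 under LD. Its log2 difference was -0.0093 with a 95% interval of -0.19 to 0.17. CART ch6 (LOC100533499) stood at 13.2 and 14.8 FPKM under SD and 12.8 and 10.7 under LD (log2 difference -0.24, limma adjusted p = 0.792), with LD 1 next to SD 1. Without LD 1 it was -0.36 and without LD 2 -0.12.

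The other 3 CART genes were each seen mainly in 1 or 2 libraries. CART ch11 (LOC100533500, chromosome 11 at 4590165 to 4593442) was listed at 0 in SD 1, at 0.146 FPKM in SD 2, at 9.81 in LD 1 and at 0.21 in LD 2. It passed the filter only through LD 1, and its log2 difference of 1.76 (95% interval -0.84 to 4.35, limma adjusted p = 0.803) was 0.18 without that library. CART ch22 (LOC100533501) was listed at 0 in SD 1 and stood at 2.19 FPKM in SD 2, 0.677 in LD 1 and 0.258 in LD 2. CART ch4 (LOC100533498) was listed at 0 in SD 1 and LD 2 and stood at 0.884 in SD 2 and 0.697 in LD 1. For CART ch11 both LD values were above both SD values, but LD 2 was near SD 2, and for CART ch22 and CART ch4 the groups overlapped. Summed markers of midbrain and hindbrain were at 8.96 and 9.54 FPKM under SD and at 9.44 (LD 1) and 7.88 (LD 2) under LD, a sum that rests on 3 tested genes. The gene for myelin basic protein (LOC101159204), a glial marker, was at 272 and 245 FPKM under SD, 448 in LD 1 and 175 in LD 2. Another glial marker, glul, was at 817 and 749 under SD, 736 in LD 1 and 612 in LD 2. The part of such markers in the CART values was not tested.

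Orexin, the arousal peptide of a small group of hypothalamic neurons, was encoded by hcrt at 7.49 and 7.38 FPKM under SD, and at 9.70 and 6.09 under LD. The LD libraries lay on either side of the closely spaced SD values. Galanin, a peptide of many hypothalamic neurons that acts on feeding and reproduction, also had LD values on either side of the SD values. The gal gene stood at 30.9 and 33.2 FPKM under SD and at 42.7 and 28.5 under LD. For pdyn, the dynorphin precursor gene, the values were 51.1 and 55.1 under SD and 69.6 and 46.4 under LD. For these 3 genes, as for CART ch3, LD 1 was the highest library and LD 2 the lowest. The myelin basic protein gene above also had its highest value in LD 1 and its lowest in LD 2. So had the neuronal marker snap25, at 883 in LD 1 and 849 in LD 2, only 1.04-fold from lowest to highest. Neuronal markers differed, with syt1 highest in LD 2, at 469 against 450 in LD 1. Glial markers differed as well. Highest in LD 1 and lowest in LD 2 were also s100b, at 513 and 391, and myelin proteolipid protein (LOC101157800), at 606 and 325. The same held for 2 further myelin basic protein genes, mbp and LOC101173447. In contrast, glul was highest in SD 1 and apolipoprotein Eb (LOC101161673) highest in SD 2. These resemblances were picked after the values were seen, and their part in the result was not tested. Log2 differences were 0.046 for hcrt, 0.12 for gal and 0.10 for pdyn, and without LD 1 they were -0.25, -0.16 and -0.19.

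**Figure D2:**
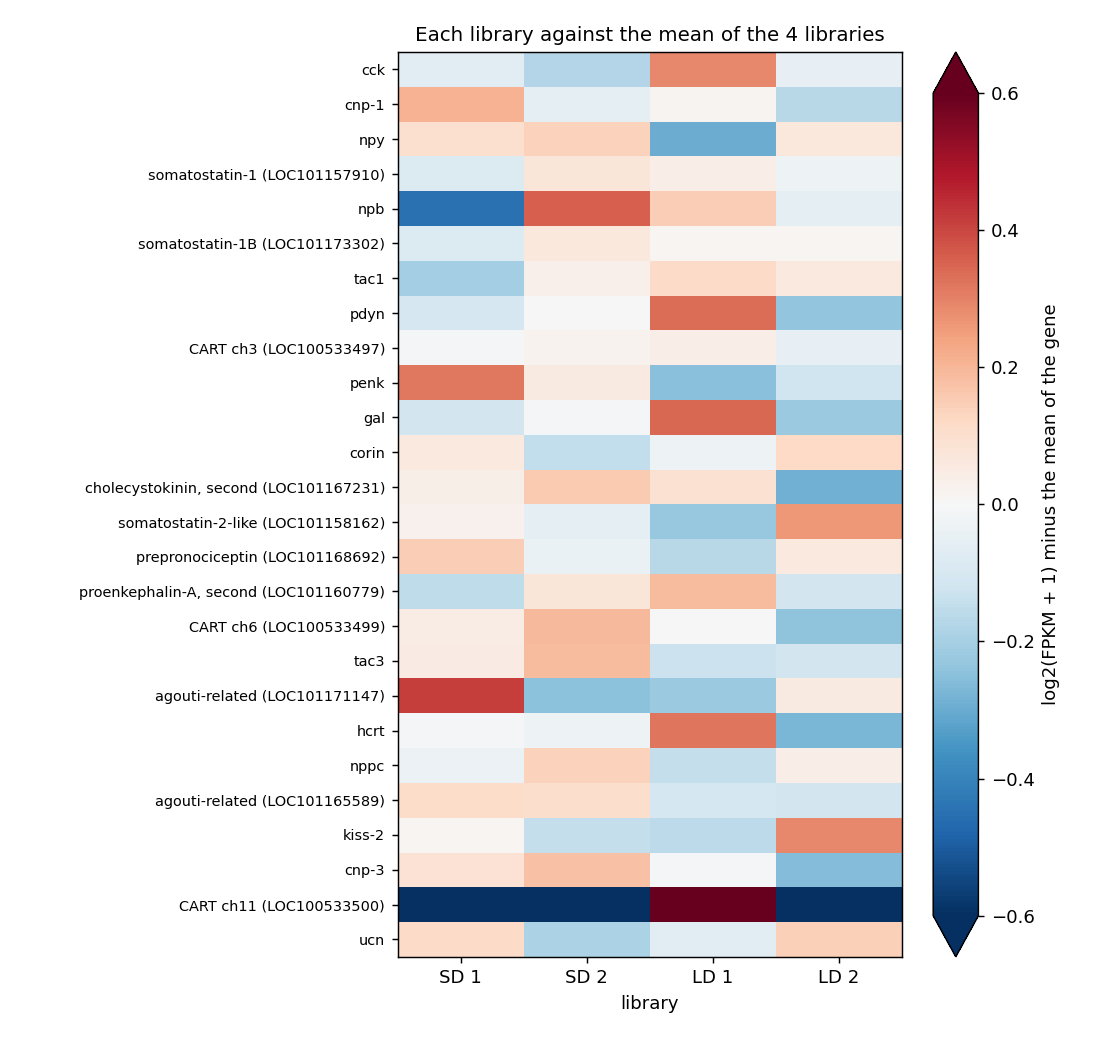
Each library's log2(FPKM + 1) minus the gene's mean over the 4 libraries, for the 26 tested genes ordered by level; red is above and blue below the mean, and colours end at -0.6 and 0.6. Columns of the same group often differ in colour, as LD 1 and LD 2 do for pdyn, gal and hcrt, and as SD 1 and SD 2 do for npb.

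Opioid peptides bind the delta, kappa and mu receptors, and nociceptin binds a related receptor of its own. The enkephalin precursor gene penk, on chromosome 17, had the lowest unadjusted p of the precursors. It stood at 50.1 and 41.5 FPKM in SD 1 and SD 2, and at 33.5 and 36.8 in LD 1 and LD 2. Both LD values were below both SD values, and the widest gap between neighbouring values was the one between the SD libraries. The mean was 0.77 times that of SD, with a log2 difference of -0.37 (standard error 0.11, 95% interval -0.66 to -0.08). The limma p was 0.022 unadjusted and 0.783 adjusted over all genes, so the gene was not called. Among the 17030 genes and features its p ranked 468th. Leaving out each library in turn gave log2 differences from -0.50 to -0.24 and unadjusted limma p from 0.00575 to 0.102, with -0.30 and the highest p when LD 1 was left out.

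The penk value is a sum over 3 features. The feature at 5213816 to 5242150 was listed at 0 in every library. The others cover different pieces of the gene, so the sum is higher than the level of either. The piece at 5242034 to 5242505 stood at 30.4 and 25.9 FPKM under SD and 20.9 and 21.0 under LD. The piece at 5201695 to 5205358 stood at 19.8 and 15.7 under SD and 12.6 and 15.7 under LD. SD 2 and LD 2 nearly coincided there, and its groups overlapped. This piece is 1224 bases long, against 399 for the other, and was not fitted alone. With only the higher piece in the fit, the log2 difference was -0.40 (limma adjusted p = 0.798, unadjusted 0.00885). Another gene described as proenkephalin-A, LOC101160779 on chromosome 24, stood at 13.6 and 16.1 FPKM under SD and 17.5 and 14.1 under LD, and its groups overlapped. The ratio of penk to LOC101160779 was 3.68 and 2.58 under SD and 1.91 and 2.61 under LD. The nociceptin precursor gene, LOC101168692, stood at 18.1 and 15.7 FPKM under SD and 14.3 and 16.9 under LD.

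Somatostatin lowers the release of growth hormone from the pituitary, and its 2 most abundant genes varied little between libraries. The gene described as somatostatin-1 (LOC101157910) stood at 127 and 141 FPKM under SD and 138 and 132 under LD. Somatostatin-1B (LOC101173302, chromosome 7) stood at 78.4 and 86.7 FPKM under SD and 83.6 and 83.7 under LD. Log2 differences were 0.0084 (95% interval -0.19 to 0.21) and 0.021 (95% interval -0.17 to 0.21). Among all pairs within a family the ratio of these 2 genes was the steadiest, at 1.57 to 1.65 over the libraries. Somatotropin, the growth hormone gene and the 1 gene called in the whole fit, stood at 914 and 866 FPKM under SD and 263 and 274 under LD in the same libraries (limma adjusted p = 0.0219), a call that was lost with no filter on low values, with no trend in the variance, with the replicate block, without SD 1 and without LD 2. A somatostatin-2-like gene (LOC101158162) lies 5965 bp from somatostatin-1 on chromosome 13. It stood at 25.7 and 24.2 FPKM under SD and at 21.4 and 30.4 under LD, on either side of the SD values. A somatostatin-like gene on chromosome 18 (LOC110017086) was listed at 0 in all libraries.

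The 2 tachykinin genes had differences of opposite sign, and neither passed the test. The gene tac1, which encodes substance P and neurokinin A, stood at 50.6 and 59.6 FPKM under SD and 63.3 and 60.7 under LD. SD 1 was the low library and SD 2 was close to the LD values, and the log2 difference was 0.17 (95% interval -0.08 to 0.42, limma adjusted p = 0.802). It was 0.057 without SD 1 and 0.29 without SD 2. The gene tac3 encodes neurokinin B, which in mammals acts on the neurons that time the release of GnRH (gonadotropin-releasing hormone). It stood at 9.71 and 10.8 FPKM under SD and 8.47 and 8.59 under LD. The groups did not overlap and the LD libraries were nearly equal, with a log2 difference of -0.24 (95% interval -0.48 to 0.0086, limma adjusted p = 0.784, unadjusted 0.0558). Its feature overlaps one of LOC101170759, at 5.26 to 6.14 FPKM, and the part of shared reads was not tested. Kisspeptin, which in mammals drives GnRH neurons, was represented by kiss-2, at 5.10 and 4.48 FPKM under SD and 4.42 and 6.39 under LD. Its lowest and its highest value were both in LD.

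The identifier npb covers 2 genes for neuropeptide B, a ligand of the neuropeptide B/W receptors, whose neurons in the medaka brain are known to differ between females and males. Their sum was 69.5 FPKM in SD 1 and 122 in SD 2, while the LD libraries had 105 and 91.2. The spread within SD was wider than the whole LD range and held both LD values. The gene on chromosome 8 (10549373 to 10550690) made up most of it, at 66.2 and 115 FPKM under SD and 98.1 and 86.6 under LD. The gene on chromosome 1 (28830432 to 28831504) stood at 3.34 and 6.70 under SD and 7.06 and 4.64 under LD. For each of them SD 1 was the lowest library. Fitted apart, their log2 differences were 0.075 (95% interval -0.60 to 0.75) and 0.22 (95% interval -0.61 to 1.05).

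Natriuretic peptides lower blood pressure and salt load, and the C-type forms are among those known from the brain. The gene cnp-1, the second most abundant of the 35, lies on chromosome 16 and stood at 218 and 180 FPKM under SD and at 190.1 and 167 under LD. SD 1 was the highest library and the groups overlapped (log2 difference -0.15, 95% interval -0.45 to 0.15). The difference was -0.015 without SD 1, -0.29 without SD 2, -0.24 without LD 1 and -0.059 without LD 2. The gene nppc, described as C-type natriuretic peptide 4, stood at 6.99 and 8.03 FPKM under SD and 6.42 and 7.42 under LD. The gene cnp-3 stood at 3.16 and 3.43 under SD and at 2.90 and 2.27 under LD, with both LD values lower (log2 difference -0.27, 95% interval -0.66 to 0.13, limma adjusted p = 0.802), and it was -0.39 without LD 1 and -0.14 without LD 2. The atrial peptide gene nppa lies 14959 bp from cnp-3 on chromosome 7 and was below the filter, at 0.679 and 0.450 FPKM under SD and 0.901 and 0.975 under LD. The enzyme gene corin stood at 29.5 and 25.4 FPKM under SD and 27.7 and 30.8 under LD, summed over 5 features. Without corin the median log2 difference of the remaining 25 tested genes was 0.0084.

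**Figure D3:**
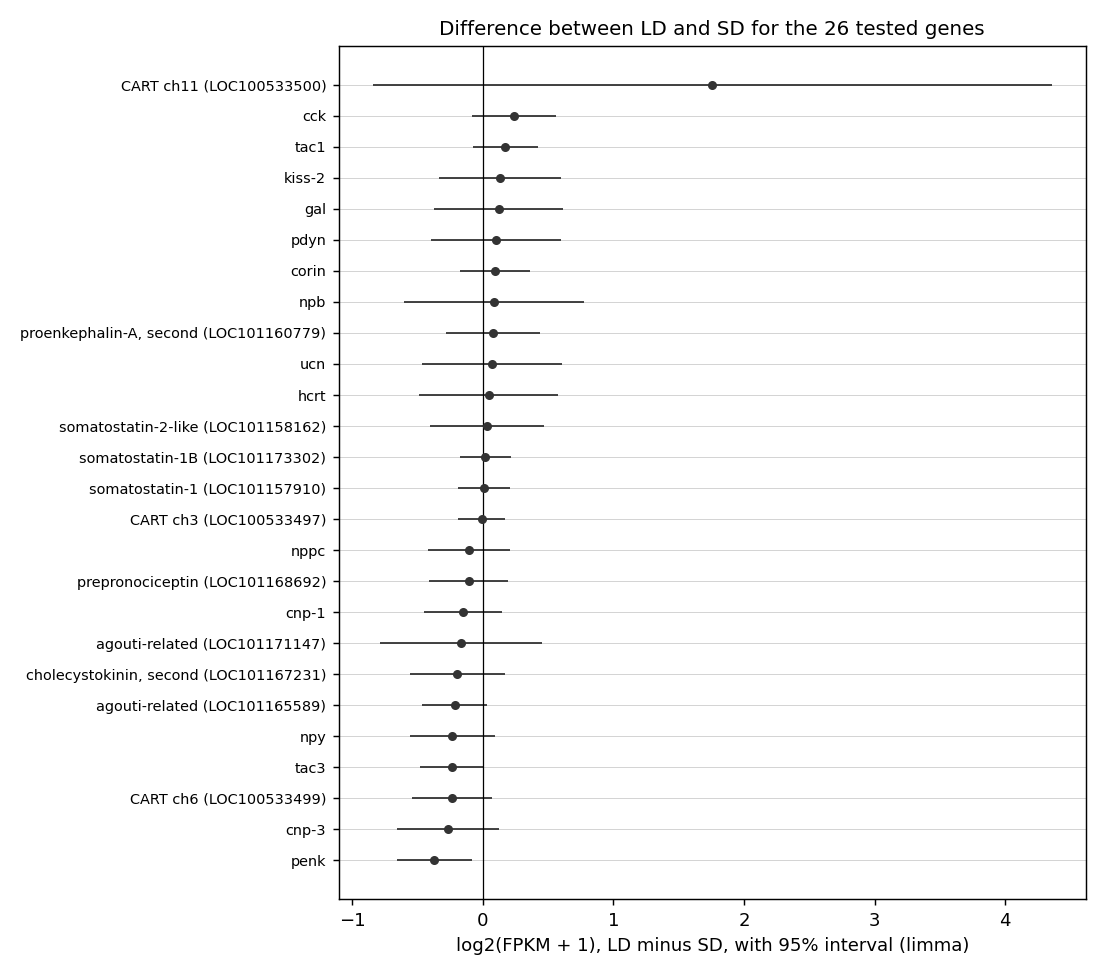
Difference in log2(FPKM + 1) between LD and SD for the 26 tested genes, with its 95% interval from limma, ordered by size; values above 0 are higher in LD. The interval of penk, from -0.66 to -0.08, lies below 0, and that of CART ch11 runs from -0.84 to 4.35.

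Urocortins, stress peptides related to CRH (corticotropin-releasing hormone), and the urotensins were scarce. The urocortin gene ucn was just above the filter, at 1.45 and 0.986 FPKM under SD and 1.16 and 1.49 under LD. The gene ucn2 was below it, at 0.467 and 0.898 under SD, listed at 0 in LD 1 and at 0.314 in LD 2. The genes ucn3 and LOC100873162 (urotensin II-related peptide) were listed at 0 in every library, and urotensin-2-like (LOC101165144) was at 0.120 FPKM in LD 2 and listed at 0 elsewhere. In all, 3 genes were at 0 throughout, and 6 more had a value in some library but a mean under 1 FPKM. The filter lay between ucn, with a mean of 1.27 FPKM, and CART ch22, with a mean of 0.782.

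Other precursor genes, outside the search words, were described by a list of 34. Of these 24 were tested, 13 had a difference above 0 and 11 below, the median was 0.055, and none passed the threshold. An unadjusted p under 0.05 was found for 4, for 3 of the 42 receptor genes below and for 2 of the 21 processing genes, where 6.34% of all genes and features had one. The most abundant were pomc, the precursor of ACTH and melanocyte-stimulating hormone, at 1579 and 1374 FPKM under SD and 1384 and 1165 under LD, and the pro-MCH-like gene LOC101161984. That gene encodes melanin-concentrating hormone, and its values of 797 and 989 under SD and 870 and 855 under LD exceeded those of every gene found by the search words. The gene described as VIP peptides, named because it is a search word, stood at 34.3 and 43.4 FPKM under SD and 32.7 and 37.2 under LD.

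Genes for receptors of these peptides were tested in 42 of 56 cases. Differences were above 0 for 16 and below 0 for 26, with a median of -0.064 and none past the threshold. The most abundant were a galanin receptor type 2 gene (LOC101155603), at 71.7 and 60.9 FPKM under SD and 58.0 and 69.3 under LD, and npr2, the receptor of C-type natriuretic peptides, at 54.0 and 48.4 under SD and 56.6 and 52.7 under LD. Of the tachykinin receptors, tacr3 binds neurokinin B. Its values, chosen after they were seen, were 6.0 and 5.31 FPKM under SD and 4.35 and 4.18 under LD, a log2 difference of -0.34 (limma adjusted p = 0.783, unadjusted 0.0332). Those of tacr2, chosen in the same way, were 26.2 and 23.1 under SD and 21.0 and 19.2 under LD (limma adjusted p = 0.783, unadjusted 0.0333).

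Enzymes that cut and finish the precursors, and proteins of the granules that hold them, formed another list and differed widely in level. All 21 genes of that list were tested, 8 had a difference above 0 and 13 below, with a median of -0.064, and none passed the threshold. The gene for secretogranin-2 (LOC101172108), a granule protein, stood at 549 and 612 FPKM under SD and 597 and 565 under LD. The convertase gene pcsk2, which cuts precursors at pairs of basic residues, stood at 372 and 361 under SD and 367 and 351 under LD. The 17 neuronal markers, led by snap25 and syt1, summed to 3014 and 3013 FPKM under SD and to 3084 and 3101 under LD, slightly higher in both LD libraries.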

How the data were processed

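Libraries of messenger RNA were made with a stranded TruSeq kit, per the labels' protocols. Per the submitters' processing notes, the tools were HISAT2 2.0.5 and StringTie 1.3.3b, with no roles given. The authors deposited 1 table of FPKM values for 93896 features, per the file headers, with the length of each feature in bases and its best BLAST hit. The genome build and the strand setting are not given in the sources used here. Features (52142 with a hit) were summed by the gene identifier of the hit into 62652 units, and those without a hit stayed apart. Summing adds features that cover separate or overlapping pieces of a gene, and reads shared by close paralogs cannot be separated. Names were looked up by GeneID in a RefSeq table (assembly ASM223467v1), where 36 of 36 member GeneIDs matched; coordinates are those of the deposited table.

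Because FPKM values are normalised, a count model was not fitted. Taken as multiples of the most frequent low step of FPKM times length, values were whole within 0.05 in 18.2% to 20.2% of low cases, so counts were not rebuilt, the depth is unknown, and no counting interval is given. Units with a mean of at least 1 FPKM were fitted on log2(FPKM + 1), which understates the change of low genes, with limma 3.58.1 in R 4.3.3 (group as the only term, mean-variance trend, two-sided, Benjamini-Hochberg over all 17030 units, threshold 0.05). Tables and plots used Python 3.11.15, pandas 2.3.3 and matplotlib 3.10.9.

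The members and lists were chosen with earlier results of these data known, and patterns of some lists were corrected after their matches were seen. By the rule for named genes every member is accounted for, with values in each library for at least the 12 most abundant, any with an unadjusted p under 0.05 and the most abundant of each family. From each further list the rule names the 2 most abundant genes and any called gene. Myelin basic protein, the other myelin genes, apolipoprotein Eb, the VIP gene, tacr2, tacr3 and the genes of the closing section fall outside it. They were chosen after their values were seen. The check of the telencephalon markers is not reported here.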

Additional observations from a re-analysis of the deposited data

How the results depend on the processing

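No precursor gene passed the threshold under any of the 14 alternatives (12 planned, and 2 chosen after seeing the data: features summed by GeneID, and the highest feature of a gene only). The one nearest to it was CART ch11 without LD 2, with a log2 difference of 3.34, where LD 1 alone stood for LD. Of 361 values, 339 kept their direction, but many could not change it. The other filters, the replicate block, no trend, robust empirical Bayes and only rows at the hit location left each member's estimate as it was. With each library left out in turn, 14 genes changed sign in at least 1 case. The log2 differences then ran from -0.067 to 0.084 for somatostatin-1, -0.051 to 0.093 for somatostatin-1B, -0.21 to 0.27 for somatostatin-2-like, -0.32 to 0.49 for npb, -0.071 to 0.23 for LOC101160779, -0.50 to 0.16 for LOC101171147 and -0.055 to 0.036 for CART ch3. They ran from -0.013 to 0.20 for corin, -0.079 to 0.22 for ucn, -0.19 to 0.39 for pdyn, -0.16 to 0.40 for gal, -0.22 to 0.0054 for LOC101168692, -0.25 to 0.34 for hcrt and -0.093 to 0.36 for kiss-2. With quantile normalization somatostatin-1 was at -0.0094 and somatostatin-1B at -0.0088. For the other 12 genes the ranges were 0.073 to 0.41 for cck, -0.38 to -0.0050 for LOC101167231, -0.41 to -0.055 for npy, -0.22 to -0.21 for LOC101165589, -0.36 to -0.12 for CART ch6, 0.18 to 3.34 for CART ch11, -0.50 to -0.24 for penk, 0.057 to 0.29 for tac1, -0.31 to -0.17 for tac3, -0.29 to -0.015 for cnp-1, -0.39 to -0.14 for cnp-3 and -0.20 to -0.013 for nppc.

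The median difference of the tested precursors was -0.041 to -0.012 with 1 library left out, 0.015 with all. Genes whose groups do not overlap then numbered 16 to 19, against 9 with all libraries, since a lone library overlaps less often by construction. Genes and features called in the whole fit numbered 0 to 4 with 1 library left out, 0 with no filter, 0 with no trend, 0 with the replicate block and 2 with only rows at the hit location, against 1. Whether libraries of the same number were paired is not given. Deviations of same-numbered libraries correlated at 0.039 over genes, but with 2 numbers this value cannot tell whether there was a pairing. A lone library is assumed to vary like the other group. Intervals with 2 libraries per group limit what can be seen.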

Other observations

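Several peptide genes outside the search words and the convertase gene pcsk6 were highest in the same library as CART ch11. All were chosen after their values were seen. That library, LD 1, was the highest for 22.7% of all tested genes and features. A link between these genes and CART ch11 was not tested. The relaxin-3 gene rln3, known from brainstem neurons in mammals, was at 1.54 and 2.03 FPKM under SD, and at 7.30 in LD 1 and 2.34 in LD 2. For rln3a these values were 0.250, 0.410, 1.31 and 0.221, under the filter, so the share above does not cover genes of its level. Peptide YY-A (LOC101155694) was at 3.61, 3.02, 10.5 and 1.59 FPKM in that order, so the LD libraries held both its highest and its lowest value. The neuromedin-B gene nmb was at 7.43, 8.38, 14.9 and 8.19. The convertase gene pcsk6 was at 1.37, 1.79, 7.93 and 3.82, higher in both LD libraries, with a log2 difference of 1.35 (limma adjusted p = 0.783, unadjusted 0.00758).

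Both GnRH genes below were also chosen after their values were seen. The gene gnrh2, whose peptide is known from midbrain neurons, was highest in SD 2 as CART ch22 and CART ch4 were. It was listed at 0 in SD 1 and LD 2, with 1.45 FPKM in SD 2 and 0.462 in LD 1. Of all tested genes and features, 26% were highest in SD 2. That share does not cover genes under the filter, as gnrh2, CART ch22 and CART ch4 are. The gene gnrh3 was at 38.9 and 43.4 FPKM under SD and 26.6 and 28.4 under LD, lower in both LD libraries (limma adjusted p = 0.60, unadjusted 0.00125), and did not pass the threshold.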
